A study of Mus musculus with 2 samples.

Results

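MHC class I molecules carry peptides made inside a cell to its surface, where CD8+ T cells read them, and nearly every nucleated cell makes them, hepatocytes included. A class I molecule is a heavy chain held by beta2-microglobulin, and its peptides are cut by the proteasome, pumped into the endoplasmic reticulum by TAP and trimmed by ERAP1. Class II molecules, an alpha and a beta chain guarded by the invariant chain CD74, show peptides from outside the cell to CD4+ T cells and are made mainly by macrophages, dendritic cells and B cells. In the liver, Kupffer cells and the endothelium of the sinusoids also carry class II, while resting hepatocytes carry little or none.

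The genes of both pathways were chosen by name on the array. They were every gene whose name begins with H2-, the mouse MHC, together with B2m, Tap1, Tap2, Tapbp, Psmb8, Psmb9, Psmb10, Nlrc5, Ciita, Cd74, Cd1d1, Mr1 and Erap1. This gave 54 of 30153 genes, read by 71 probes printed as 98 spots. By position in the mm9 build, 43 of the 54 genes had a probe on chromosome 17, where the mouse MHC lies. By role, 29 were class I heavy chains, 11 class II chains or their chaperones, 8 supplied or loaded class I peptides, 2 were regulators, 2 encoded class I-like molecules outside the MHC, and 2, H2-Ke2 and H2-Ke6, lie in the MHC but encode proteins that present no antigen.

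The study compared, by 1-colour microarray, mature hepatocytes (MHs) with Sox9+EpCAM- cells, hepatocytes that switch on the bile duct factor Sox9 in chronic injury. MHs came from healthy livers of Sox9-EGFP mice by collagenase perfusion, low-speed centrifugation and a Percoll gradient. Sox9+EpCAM- cells were sorted as GFP+EpCAM- cells from livers of Sox9-EGFP mice fed DDC, a compound that injures bile ducts. EGFP in these mice follows Sox9, so that the gate also admits other EpCAM- cells in which Sox9 is on. Cells with CD31, an endothelial marker, or CD45, the leukocyte antigen, were gated out in another sort of GFP+EpCAM- cells in the study, and whether this was done for the array is not given. The groups thus differ in diet, sort and isolation together, and the age, the strain background and the number of mice per array are not given in the sources used here. A diet of 2 weeks is given for cells sorted in the same way, but it is not tied to the arrays. There was 1 array per group, both on 1 slide and in 1 scan, so no difference below has a replicate check, and no test could be made.

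Of 43020 spots, the scanner marked 27523 as well above background for MHs and 32158 for Sox9+EpCAM- cells. Several values went against the labels. Both samples are labelled male. Xist, which females transcribe, was nonetheless detected only in MHs, with intensities of 1940 and 3500 on its 2 probes, and 4 Y-linked genes only in Sox9+EpCAM- cells. Sex and group therefore cannot be told apart. Epcam, whose product was used to exclude cells from the sort, read 139 in MHs and 2770 in Sox9+EpCAM- cells. Sox9 itself, a mean over 10 spots, read 8.87 in MHs, which was not well above background, and 60.7 in Sox9+EpCAM- cells. Of 6 bile duct markers read, 2 were at least 4-fold higher, or 33.3%, and 0 lower, beside 5.59% and 5.57% of all genes. Krt19 and Krt7 had log2 differences of 0.42 and -0.23. By qPCR on such cells from DDC-fed mice, split by CD24, the paper found Epcam, Krt7 and Krt19 upregulated in neither fraction. All 8 hepatocyte markers read were well above background on both arrays, with log2 differences from -2.46 to -0.23.

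Levels are given as scanner intensities, MH array before Sox9+EpCAM- array. Differences are log2 of the scaled intensity on the Sox9+EpCAM- array minus that on the MH array, so a negative value means lower in Sox9+EpCAM- cells. The 75th percentile of intensity, to which each array was scaled, was 741 for MHs and 1110 for Sox9+EpCAM- cells, and equal intensities thus give -0.58. A gene stands by its probe with the highest mean over both arrays, and a difference of 4-fold or more was the size singled out. In bulk RNA, fewer cells of a type and less RNA per cell cannot be told apart.

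Of the antigen presentation genes, 4 were lower in Sox9+EpCAM- cells by 4-fold or more and none was higher by that size. Of the 54 genes, 45 were well above background on at least 1 array, 42 of them on both. Higher by 4-fold or more in Sox9+EpCAM- cells were 0 of the 45, where 5.59% of all 23417 genes measured passed that size. Lower by 4-fold or more were 4 of the 45, or 8.89%, where 5.57% of all genes passed. These 4 were H2-Aa and Cd74 of the class II pathway, Erap1, the peptide trimmer, and H2-Q1, a nonclassical class I heavy chain. The median difference over the 45 genes was -0.51, beside -0.17 over all genes measured. At 2-fold, 2 of the 45 were higher and 11 lower, beside 14.2% and 17.1% of all genes, and at 10-fold 0 were higher and 1 was lower, beside 1.55% and 1.47%. Within 1.5-fold lay 20 of the 45, or 44.4%, close to the 47.3% of all genes.

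**Figure D1:**
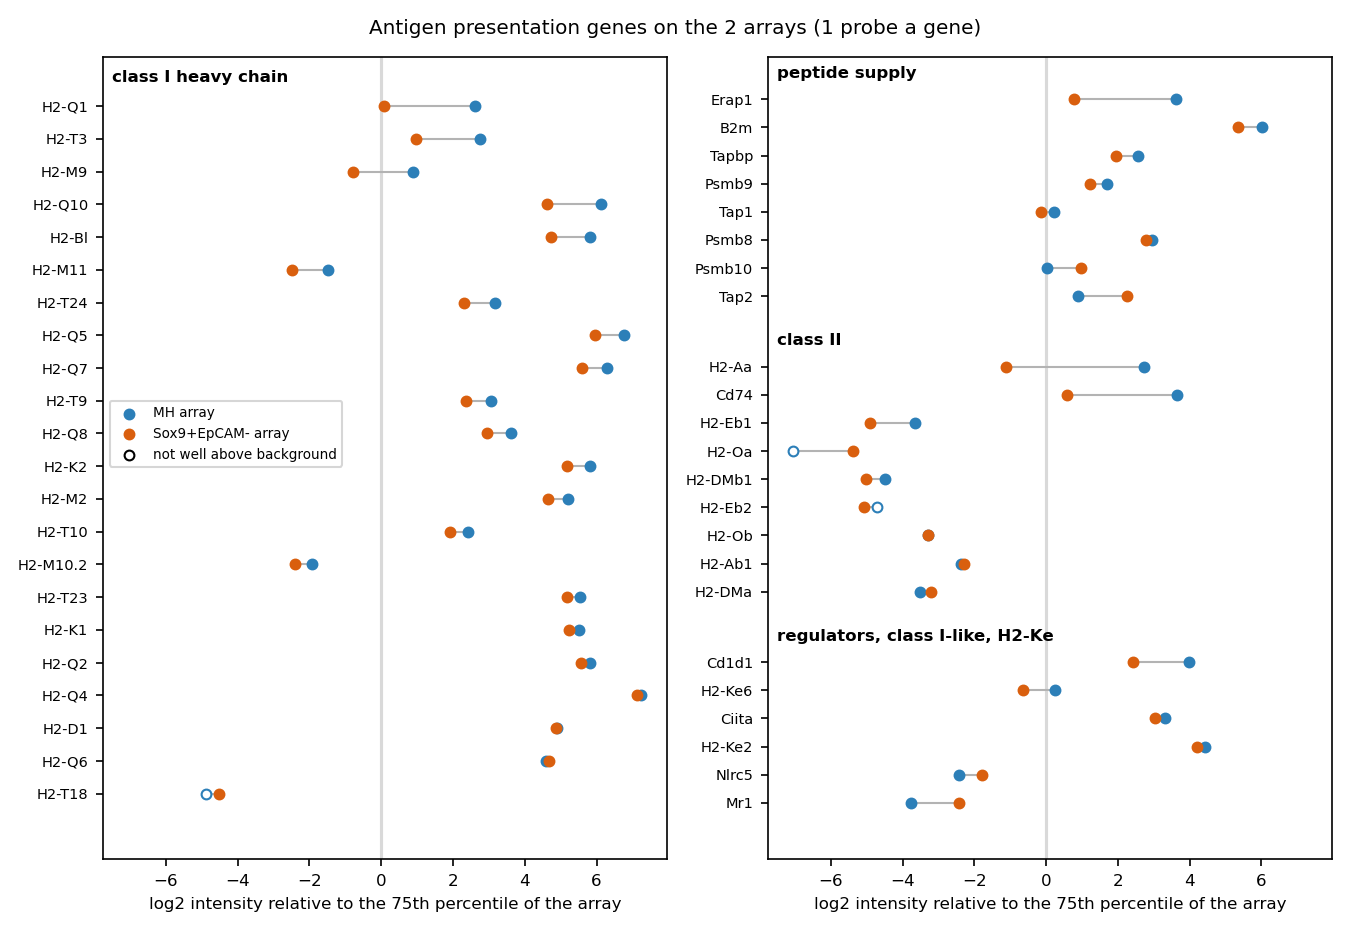
Intensity of the 45 measured antigen presentation genes on the 2 arrays, 1 probe a gene, as log2 after division by each array's 75th percentile. Blue points are the MH array and orange points the Sox9+EpCAM- array, with 1 array each, and open points were not well above background. The longest gaps toward lower values in Sox9+EpCAM- cells are those of H2-Aa, Cd74, Erap1 and H2-Q1, while H2-K1, H2-D1 and H2-Q4 nearly coincide.

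The classical class I heavy chains, which present most peptides to CD8+ T cells, differed little between the arrays. H2-D1 (chr17:35403886-35403945, mm9) had intensities of 22200 and 32200, a difference of -0.05. H2-K1 was read by 2 probes that gave the same picture. Its probe at chr17:34133984-34134043 had 34100 and 41900, a difference of -0.29, and its probe at chr17:34133055-34133114, printed 10 times, had means of 9427 and 10940, a difference of -0.37. The log2 SD between the 10 spots was 0.05 for MHs and 0.10 for Sox9+EpCAM- cells. That is the error of a spot on these arrays and not the spread between mice. H2-L had no probe under that name.

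Among the other heavy chains, 19 were measured on both arrays, with a median difference of -0.69. Over all 21 class I heavy chains measured on both, the median was -0.67, 20 were below 0 and 1, H2-Q6, above it. Of all 19235 genes measured on both arrays, 59.9% were below 0, with a median of -0.19. This count depended on the scaling, since quantile normalization put 6 of the 21 above 0 and scaling to Gapdh put 0 there. Within 2-fold lay 15 of the 21, and the other 6, or 28.6%, were at least 2-fold lower, beside 17.4% of all genes measured on both arrays.

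The Q region, next to H2-D1, encodes nonclassical chains, some of them secreted. H2-Q4, which encodes a secreted chain, had 113000 and 155000, a difference of -0.13, which quantile normalization turned to 0.47. H2-Q6 had 17800 and 28100, a difference of 0.08. H2-Q7, a source of the Qa-2 antigen, had 58600 and 53500, a difference of -0.71.

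H2-Q5 had 80400 and 69600, a difference of -0.79, and H2-Q8 had 9170 and 8640, a difference of -0.67. These 5 chains were thus within 2-fold. H2-Q10 and H2-Q1 lay further down.

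H2-Q10, a secreted chain made chiefly in liver, had 51500 and 27200 on its brighter probe and 31600 and 15900 on the other. Its differences of -1.50 and -1.57, or 2.84-fold and 2.98-fold lower, came from probes in different parts of the gene, at chr17:35610036-35610095 and chr17:35611449-35611508. H2-Q1 (chr17:35461859-35461918) had 4510 and 1180, a difference of -2.52, or 5.73-fold lower, the lowest value among class I heavy chains by the probes that stand for them.

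The 2 probes of H2-Q2 lie 22106 bases apart. One at chr17:35482113-35482172 had 41800 and 53100, a difference of -0.24. The other at chr17:35460007-35460066, which lies 1852 bases before the H2-Q1 probe, had 34200 and 26900, a difference of -0.93. The 2 probes of this gene thus differed by more than 1.5-fold.

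The T region encodes further nonclassical chains. H2-T23 encodes Qa-1, a ligand of inhibitory receptors on natural killer cells, and had 34300 and 40300, a difference of -0.35. H2-T10 had 3990 and 4190, a difference of -0.51. H2-T9 had 6120 and 5680, a difference of -0.69.

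H2-T24 had probes that went opposite ways 965 bases apart. Its brighter probe had 6650 and 5530, a difference of -0.85, and its dimmer one 110 and 671, a difference of 2.03, or 4.07-fold higher. H2-T18 was detected well above background in Sox9+EpCAM- cells only, at 25.3 and 48.5, and its other probe on neither. Its limit of 0.22 turned to -0.17 with normexp background correction and to -0.01 with quantile normalization, so no direction is given.

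H2-T3, which encodes the TL antigen of thymus and gut, was also read by 2 probes that disagreed. Its brighter probe had 5010 and 2170, a difference of -1.79, or 3.46-fold lower. Its other probe, without a position in the file, read 6.56 in MHs, which was not well above background, and 47.7 in Sox9+EpCAM- cells. The limit of 0.20 for that probe is below the 0.22 of H2-T18, so no direction is given for it either.

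Of the M region chains, 7 were not well above background on either array, namely H2-M1, H2-M3, H2-M5, H2-M10.1, H2-M10.3, H2-M10.4 and H2-M10.6. H2-M3 presents formylated bacterial peptides, and most H2-M10 chains are known from the vomeronasal organ. H2-M10.2 had 194 and 208, a difference of -0.48, and H2-M11 had 266 and 198, a difference of -1.01.

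H2-M9 had 1360 and 645, a difference of -1.66, while its other probe was on neither array well above background. H2-M2 had means over 10 spots of 27550 and 27620, a difference of -0.58, with log2 SDs between spots of 0.04 and 0.08. Its second probe, 217 bases away, had 115 on the MH array and 4.71, not well above background, on the other, at least 9.36-fold lower. That probe was printed as 1 spot.

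H2-K2 had differences of -0.65 and -0.67 on its 2 probes, with 42100 and 40200 on the brighter one. H2-Bl had 41900 and 29400, a difference of -1.09.

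**Figure D2:**
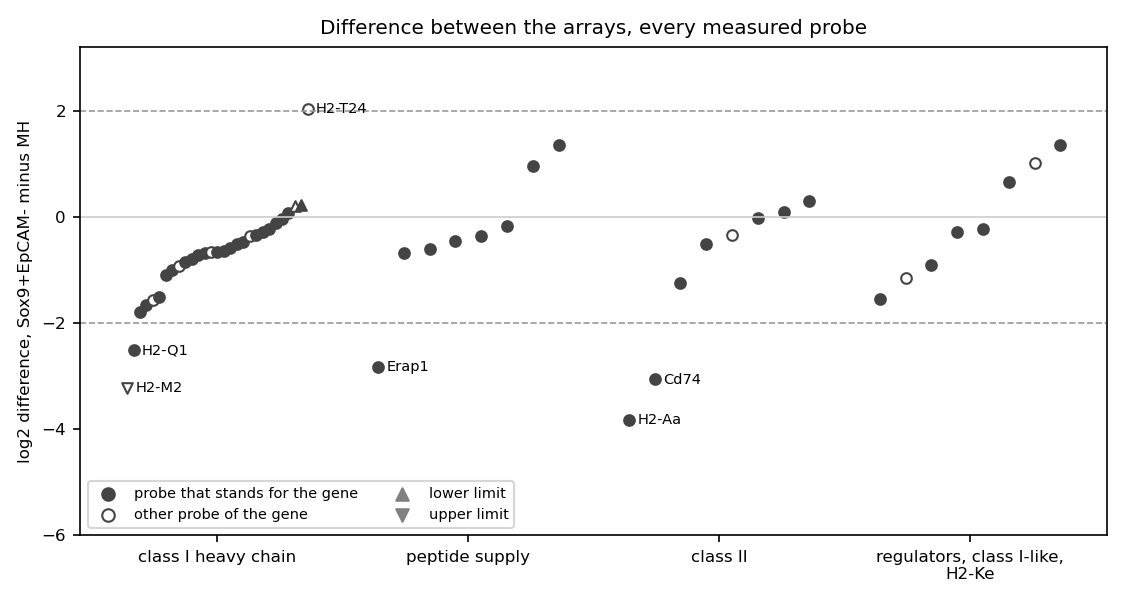
Log2 difference, Sox9+EpCAM- minus MH, of the measured probes by role. H2-Eb2 and H2-Oa, whose limits gave no fold, are not drawn. Filled points stand for the gene, open points are its other probes, triangles are limits where 1 array was not well above background, and dashed lines mark 4-fold. H2-Aa, Cd74, Erap1 and H2-Q1 lie below the lower line by the probes that stand for them, and a dimmer probe of H2-T24 touches the upper line.

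Class I genes arose by duplication and are close copies of each other, so a probe can capture transcripts of a neighbour. Of the 71 probes, 9 shared a run of at least 20 bases with a probe of another gene, or 12.7%, beside 7.19% of all probes on the array. The runs that join probes of 2 members are shown, since there the source of the signal is least certain. Capitals mark the shared run, and each line shows 30 bases of a 60-base probe, 5′ to 3′.
H2-K1: cTGGAGCTGTGGTGGCTTTTGTGATGAAGA
H2-T23: tTGGAGCTGTGGTGGCTTTTGTGATGAAGA
H2-K2: caTCTCCTGTGACATCCAGAGCCCTCAGTT
H2-Q7: tcTCTCCTGTGACATCCAGAGCCCTCAGTT
H2-Q10: cttagagtTTGTGGAGGAAATAAATGGCAG
H2-T3: tctgagtaTTGTGGAGGAAATAAATGGCAG

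The probes of H2-K1 and H2-T23 shared 29 bases and differed between the arrays by -0.29 and -0.35. Those of H2-K2 and H2-Q7 shared 28 bases and differed by -0.65 and -0.71. The dimmer probe of H2-Q10 and the brighter probe of H2-T3 shared 22 bases and differed by -1.57 and -1.79. The H2-T3 probe that shares no such run had a limit of 0.20, near the limit of detection, for which no direction is given. How much of each signal came from the other gene was not tested.

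**Figure D3:**
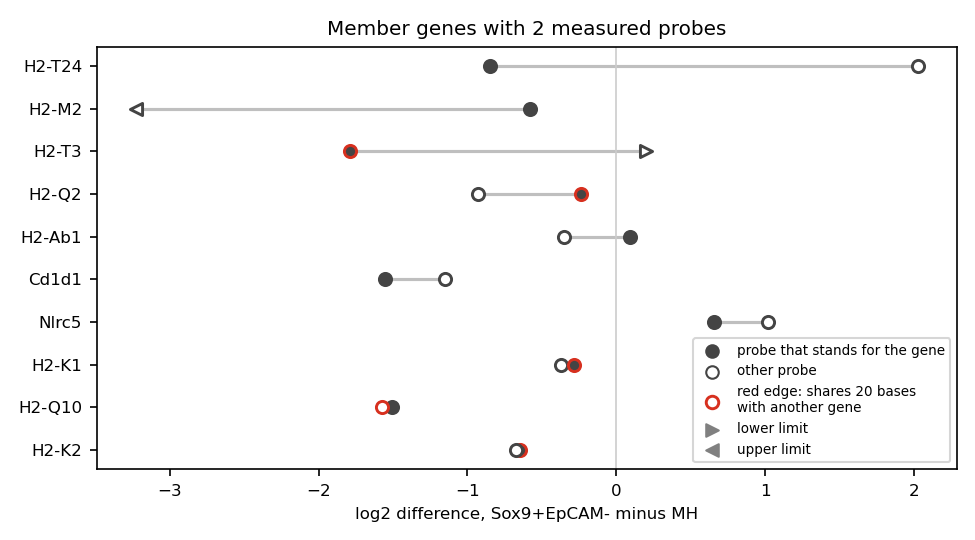
Log2 difference, Sox9+EpCAM- minus MH, for the 10 genes with 2 measured probes. Filled points stand for the gene, red edges mark probes that share 20 bases with another gene, and triangles are limits. The probes of H2-K2, H2-Q10 and H2-K1 coincide, while those of H2-T24, H2-M2, H2-T3 and H2-Q2 are over 1.5-fold apart.

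The genes that supply class I molecules with peptides were all measured on both arrays, and 1 of 8 was at least 4-fold lower, beside 5.57% of all genes. B2m, the light chain of every class I molecule (chr2:121978401-121978460), had 48000 and 44900, a difference of -0.68. Their median was -0.41, with 6 below 0 and 2, Tap2 and Psmb10, above it, beside the 59.9% of all genes below 0. Quantile normalization put 3 of the 8 above 0, as Psmb8 turned to 0.15.

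Tap1 and Tap2 form the peptide pump and differed in opposite directions. Tap1 had means over 10 spots of 870 and 1015, a difference of -0.36, with log2 SDs between spots of 0.09 on both arrays. Tap2 (chr17:34353116-34353175) had 1370 and 5270, a difference of 1.36, or 2.57-fold higher, the highest among the members by the probes that stand for them. Tapbp, which encodes tapasin, the link between the pump and the empty class I molecule, had 4350 and 4260, a difference of -0.61.

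Psmb8, Psmb9 and Psmb10 encode the catalytic subunits of the immunoproteasome, which interferon puts in place of Psmb5, Psmb6 and Psmb7. Psmb8 had 5700 and 7580, a difference of -0.17, and Psmb9 had 2400 and 2610, a difference of -0.46. Psmb10 had 748 and 2180, a difference of 0.96, or 1.95-fold higher.

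The constitutive subunits had the following values. Psmb5 had 886 and 4680 on its brighter probe, a difference of 1.82, and 1010 and 3400 on the other, a difference of 1.17. Psmb6 had 5860 and 8370, a difference of -0.07, and Psmb7 had 17100 and 23100, a difference of -0.15. In either set, 1 subunit, Psmb10 or Psmb5, was more than 1.5-fold higher in Sox9+EpCAM- cells, and the other 2 were within that size.

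Erap1, the aminopeptidase that trims peptides in the endoplasmic reticulum (chr13:74828969-74829028), had 9030 and 1900, a difference of -2.83, or 7.12-fold lower. It was read by 1 spot, and no other probe of the gene was on the array.

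By the probes that stand for each gene, the lowest differences of the whole set were those of 2 class II pathway genes. H2-Aa, the alpha chain of I-A (chr17:34421285-34421344), had 4910 and 516, a difference of -3.83, or 14.3-fold lower. Cd74, the invariant chain, had 9340 and 1670, a difference of -3.07, or 8.38-fold lower.

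The beta chain that pairs with H2-Aa did not follow it. H2-Ab1 had 143 and 228 on one probe and 103 and 121 on the other, differences of 0.09 and -0.35. These probes overlap, at chr17:34406296-34406355 and chr17:34406305-34406363, and so do not read independent parts of the transcript.

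H2-Eb1, the beta chain of I-E, had 59.3 and 37.3, a difference of -1.25. H2-Eb2 was detected well above background in Sox9+EpCAM- cells only, at 28.4 and 32.8, where the limit gave no fold, and H2-Ea-ps, the I-E alpha chain locus, on neither. A probe had to reach about 27.8 in MHs or 18.4 in Sox9+EpCAM- cells, the dimmest intensities that the scanner set well above background, so these chains were read near the limit of detection.

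H2-DMa and H2-DMb1 form the molecule that loads peptides onto class II. H2-DMa had 65.4 and 121, a difference of 0.30, and H2-DMb1 had 32.9 and 34.5, a difference of -0.51. H2-DMb2 was well above background on neither array.

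H2-Oa and H2-Ob form the inhibitor of that loading. H2-Oa was detected well above background in Sox9+EpCAM- cells only, at 5.62 and 26.7, and the limit gave no fold. H2-Ob had 76.2 and 113 on 1 of its 3 probes, a difference of -0.01, and the other 2 probes were on neither array well above background. Of the 9 class II pathway genes measured, 2 were at least 4-fold lower, or 22.2%, beside 5.57% of all genes, and the median over the 7 measured on both arrays was -0.51. Those above 0, H2-Ab1 and H2-DMa, were below 0 with normexp background correction.

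The lower values of H2-Aa and Cd74 stood beside lower values of genes that mark other liver cells. Of 11 macrophage and Kupffer cell markers measured, 8 were at least 4-fold lower, or 72.7%, beside 5.57% of all genes. At least 4-fold higher was 1, Cd68, or 9.09%, beside 5.59%. The list's summed intensity over 15 probes was 28340 in MHs and 16970 in Sox9+EpCAM- cells. A single probe of Csf1r, at 12200 and 13700, a difference of -0.42, made up most of the second sum. The other probes of that gene differed by -2.71 and -0.70. Without the 3 probes of Csf1r the sums were 14360 and 2618. Without those of Cd68 as well they were 14250 and 1009. Clec4f, which is specific to Kupffer cells in the mouse, had 6780 and 118, a difference of -6.43, and Cd68 had 52.9 and 1140, a difference of 3.85.

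Of 7 markers of the sinusoidal endothelium measured, 4 were at least 4-fold lower, or 57.1%, beside 5.57% of all genes. The summed intensity over 11 probes was 7069 and 2557. Among 5 leukocyte markers, 1, Laptm5, was at least 4-fold lower, or 20%, beside the same 5.57%. Laptm5 had 2550 and 82.0, while Ptprc, the common leukocyte antigen, had 195 and 248, a difference of -0.24. The summed intensity of the leukocyte list over 6 probes was 6068 and 1780.

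Markers of dendritic cells, B cells and T cells did not pass 4-fold in either direction, where 5.59% of all genes were higher and 5.57% lower by that size. Of 5 dendritic cell markers, 0 of the 3 measured passed 4-fold, and Itgax and Xcr1 were well above background on neither array. Their summed intensity over 8 probes was 1051 and 1625, most of it from 1 probe of Zbtb46 at 711 and 1120. Of 3 B cell markers read, Ms4a1 was on neither, and the sum over 4 probes was 99.1 and 91.0. Of 4 T cell markers 0 passed 4-fold, Cd3d was on neither, and the sum over 6 probes was 2085 and 2045. Most of that sum came from the probes of Cd4, at 961 and 951 and at 974 and 838. The part of these cells in the values of H2-Aa and Cd74 was not tested.

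**Figure D4:**
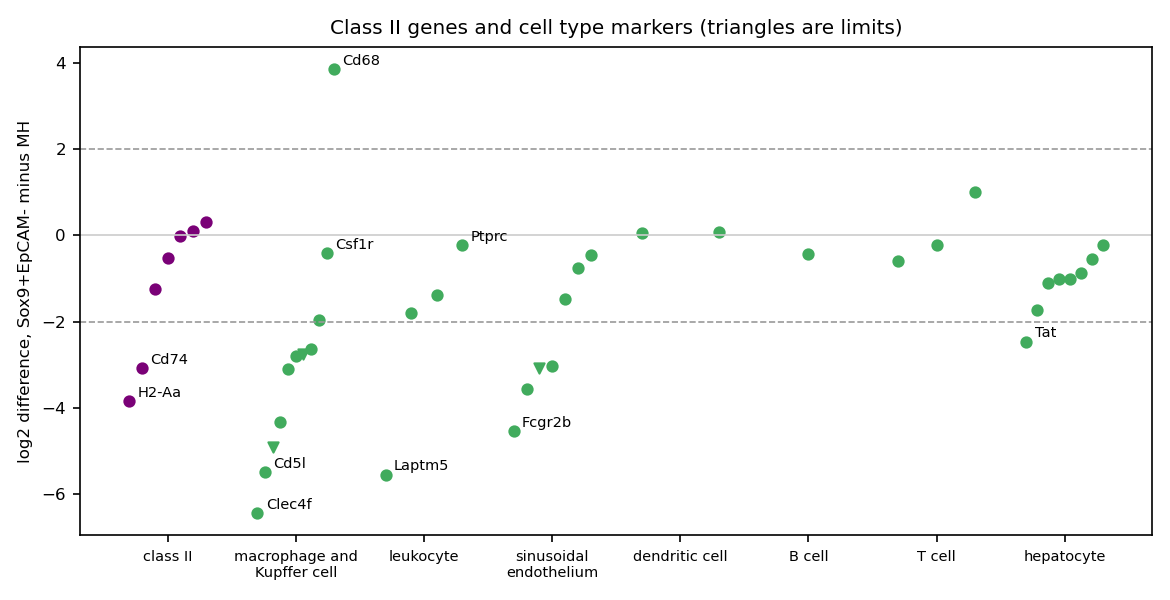
Log2 difference, Sox9+EpCAM- minus MH, of the class II pathway genes (purple) and of cell type markers (green), 1 probe a gene. Triangles are limits and dashed lines mark 4-fold. Genes whose limit gave no fold, H2-Eb2 and H2-Oa among them, are not drawn. H2-Aa and Cd74 lie in the range of most macrophage and several endothelial markers, Cd68 lies at 3.85, and the dendritic cell, B cell and T cell markers stay within 4-fold.

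The regulators of both pathways are relatives of each other. Nlrc5, which switches on class I genes, had 137 and 323 on its brighter probe and 101 and 307 on the other, differences of 0.65 and 1.02. Ciita, which switches on class II genes, had 7350 and 9020, a difference of -0.29. Its probe (chr16:10526568-10526627) holds 5 copies in a row of a 5-base unit and shares at least 20 bases with probes of 3 other genes, which differed by -0.65 (Odz1), -0.44 (Cbln2) and -0.13 (Prg4). How much of the signal was Ciita was not tested.

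The class I-like molecules outside the MHC differed in opposite directions. Cd1d1, which presents lipids to natural killer T cells (chr3:86800368-86800427), had 11600 and 5910 on its brighter probe and 791 and 533 on the other, differences of -1.56 and -1.15. Mr1, which presents vitamin B metabolites to mucosal-associated T cells, had 54.1 and 206, a difference of 1.35, which fell to 0.59 with normexp background correction. H2-Ke2, a prefoldin subunit, had 16000 and 20300, a difference of -0.24. H2-Ke6, a steroid dehydrogenase, had 880 and 705, a difference of -0.90.

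Of 39 further genes of antigen processing, interferon signalling and costimulation on the array, 38 were measured, 1 was at least 4-fold higher and 0 were at least 4-fold lower, beside 5.59% and 5.57% of all genes. The higher one was Icam1, the adhesion molecule that T cells grip, with 1730 and 13900, a difference of 2.42, or 5.36-fold higher. The median over these genes was -0.01.

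Ctss, the cathepsin that cuts the invariant chain, had 60.5 and 272, a difference of 1.59. Ifi30, the thiol reductase of the class II compartment, had 5240 and 3710, a difference of -1.08. The subunits of RFX, the factor that binds the X box of MHC promoters, differed among themselves. Rfx5 had 1110 and 2450 on its brighter probe, a difference of 0.56, Rfxap had 92.6 and 148, a difference of 0.09, and Rfxank had 2110 and 1340, a difference of -1.24.

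Irf1, an interferon response factor, had 248 and 411 on its brighter probe and 56.0 and 275 on the other, differences of 0.15 and 1.71. Of 15 genes that respond to interferon, 2 were at least 4-fold higher and 2 at least 4-fold lower, or 13.3% each way, beside 5.59% and 5.57% of all genes, with a median of -0.66.

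MHC promoters are known for a shared module, with a Y box bound by NF-Y and an X2 box bound by CREB and ATF factors, through which CIITA and NLRC5 act. Class I promoters also carry a kB site, a target of NF-kB. RefSeq held a promoter for 37 of the 54 genes (GRCm38.p6), and 250 bases before each start were searched on both strands. The 50 bases after the start were left out. The Y box was searched as CTGATTGG, the X2 core as TGACG and the kB site as GGATTCCCC. The 4 stretches shown, from 2 class II and 2 class I genes, hold different parts of this set. H2-Aa holds a Y box and an X2 core, H2-Eb1 a Y box alone, and H2-D1 all of them. H2-K1 holds an X2 core and a kB site, without a Y box match before its start. Its X2 core began 41 bases before the start, beside 101 in H2-D1, where the Y box began at 53. A Y box at that spacing in H2-K1 would lie past the start and outside the search. Capitals mark the motifs searched on either strand, and neighbouring capitals can be motifs that overlap.
H2-Aa, class II, chr17:34287824-34287923, minus strand: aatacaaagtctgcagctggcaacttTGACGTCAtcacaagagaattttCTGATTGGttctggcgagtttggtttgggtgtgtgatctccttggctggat
H2-Eb1, class II, chr17:34305767-34305866, plus strand: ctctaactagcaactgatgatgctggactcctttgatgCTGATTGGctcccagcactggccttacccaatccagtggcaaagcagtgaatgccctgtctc
H2-D1, class I, chr17:35262914-35263093, plus strand: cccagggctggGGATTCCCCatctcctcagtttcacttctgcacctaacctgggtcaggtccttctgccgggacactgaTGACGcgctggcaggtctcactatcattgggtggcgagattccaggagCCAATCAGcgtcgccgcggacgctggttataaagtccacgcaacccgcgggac
H2-K1, class I, chr17:34000348-34000527, minus strand: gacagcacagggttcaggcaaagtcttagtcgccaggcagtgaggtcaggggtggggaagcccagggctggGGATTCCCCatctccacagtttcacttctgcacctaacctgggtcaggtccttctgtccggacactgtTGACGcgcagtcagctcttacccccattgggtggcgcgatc

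The Y box was matched in 17 of the 37 promoters, or 45.9%, beside 3.83% of all 32851 promoters of the table. These were 11 of 20 class I heavy chain promoters, 4 of 8 class II promoters, Tap1 and Psmb9. It began 51 bases before the start in H2-Aa, 62 in H2-Eb1 and 53 in H2-D1. The kB site was matched in 3 of the 37, H2-K1, H2-D1 and H2-Q6, beside 0.24% of all promoters, and the X2 core in 13, or 35.1%, beside 17.8%. Members that arose by duplication share promoter sequence, so that these counts are not independent.

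The motifs were held by genes with quite different values on the arrays. Of the 10 genes with a Y box that were measured on both arrays, the lowest difference was -3.83, in H2-Aa, and the highest 0.08, in H2-Q6, with a median of -0.59. The 17 genes without a match in that window, H2-K1 among them, had a median of -0.48 and ran from -2.83 in Erap1 to 1.35 in Mr1. The 3 genes with the kB site lay between -0.29 and 0.08.

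Targets of interferon signalling were searched in the same windows. The interferon-stimulated element, written GAAANNGAAA, was matched in B2m and H2-T23 alone, or 5.41% of the 37, beside 2.98% of all promoters. The gamma-activated site, written TTCNNNGAA, was matched in 4 of the 37, or 10.8%, beside 7.02%. Only these spellings were searched, so a promoter without a match can hold a variant of either element. The B2m stretch holds the element and an X2 core, and that of Psmb9 ends in a Y box.
B2m, class I light chain, chr2:122147537-122147686, plus strand: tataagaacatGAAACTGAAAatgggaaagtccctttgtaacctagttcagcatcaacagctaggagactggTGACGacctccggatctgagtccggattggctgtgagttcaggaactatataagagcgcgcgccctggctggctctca
Psmb9, immunoproteasome, chr17:34187331-34187430, minus strand: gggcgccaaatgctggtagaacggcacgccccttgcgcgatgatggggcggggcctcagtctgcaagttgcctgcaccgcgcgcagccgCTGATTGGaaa

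Psmb9 and Tap1 are transcribed away from each other from starts 226 bases apart, so the Y box of one is the Y box of the other. Their differences on the arrays were -0.46 and -0.36.

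**Figure D5:**
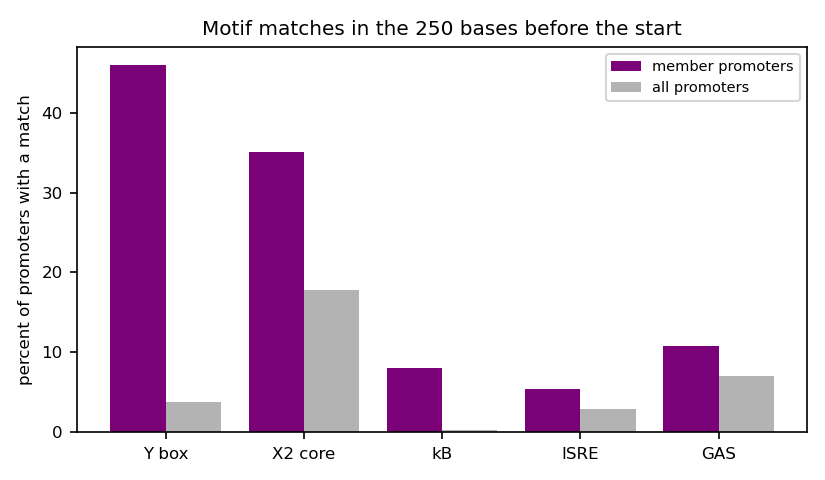
Percent of promoters with a match to each motif in the 250 bases before the start, for the 37 antigen presentation genes with a promoter (purple) and all 32851 promoters of the table (grey). The Y box stands at 45.9% beside 3.83%, and the kB site at 8.11% beside 0.24%.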

How the data were processed

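RNA of MHs and of Sox9+EpCAM- cells was hybridised to 1 Agilent 1-colour (Cy3) array each. The deposited files hold scanner intensity per spot, background-subtracted by the authors' Feature Extraction software (version 10.7.3.1 per the file headers; probe positions in mm9). The authors also deposited a table of ratios, which equal the scanner intensity over each array's median and were an alternative here.

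Control spots were dropped, as were spots that the scanner software called outliers on 1 or both arrays, which removed 0 member spots and left 39390 probes. Intensities were scaled to each array's 75th percentile, taken to log2 and averaged over the spots of a probe. Where a probe was not well above background on 1 array, its value there was replaced by a limit, namely the dimmest detected signal of that array or, if brighter, the probe's signal. With 1 array per group no test was possible. Members, lists, motifs and the promoters shown were chosen with earlier results of these data, or the sequences, known. Named with values were all members measured and, of the further genes, those past 4-fold, the constitutive proteasome subunits, Irf1, Rfx5, Ctss and Ifi30; Rfxap and Rfxank were added after their values were seen. 1 gene was left out of the pathway list and 1 of the B cell list before counting, and these are not analysed here; other listed genes without a value in the text are in the counts. The markers named were picked with their values known. Exons and untranslated regions under the probes were not determined here. Promoters are from RefSeq (GRCm38.p6), and 17 members without an entry were not searched. Python 3.11.15, pandas 2.3.3 and, for normexp with an offset of 50, limma 3.58.1 were used. The code was tested on simulated data.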

Additional observations from a re-analysis of the deposited data

How the results depend on the processing

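With 1 array per group no replicate could be left out, and a block for the slide, which both arrays share, could not be fitted. No paired analysis was possible because there was only 1 array of each cell type. H2-Aa, Cd74, Erap1 and H2-Q1 remained at least 4-fold lower under all 10 alternatives of background, scaling, outlier spots, probe choice and limits, and no other member joined them. With 2-fold as the rule of size, 2 members were higher and 11 lower, beside 14.2% and 17.1% of all genes. With 10-fold, 0 were higher and 1 lower, beside 1.55% and 1.47%. Of the further pathway genes, 7 were higher and 5 lower at 2-fold, 0 were higher at 10-fold, 3 were higher without the limits and 1, Hfe at -2.01, was lower in the deposited table. The medians of the class I, class II and peptide supply genes moved by less than 1.5-fold. Over all genes, normexp gave 612 higher and 660 lower in place of 1309 and 1304, and genes measured on both arrays alone gave 758 higher and 914 lower. Differences without the limits gave 1949 and 1416, and the deposited values gave 1130 and 1563. Scaling to Gapdh shifted all genes by -0.13 and the deposited table by -0.18. The median of both probes gave -1.90 for H2-M2, 0.59 for H2-T24 and -0.80 for H2-T3. Without probes that share 20 bases, H2-Q2 was at -0.93 and H2-T3 had a limit of 0.20, near the limit of detection. Each member probe but 3 was read by 1 spot, which limits what a single value can carry.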
